A study of Mus musculus with 8 samples.

Results

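The genes that load the replicative helicase on DNA and run the replication fork were examined in cultured mouse cochleas after Wnt activation. The set held 53 genes, chosen by name as known members of the replication machinery, with earlier results of these data known. Each was found under its symbol among the 42775 genes of the expression table. Polyadenylated RNA was sequenced from 8 libraries of wild-type Swiss Webster cochlear explants. Cochleas were taken at E12.5, kept in culture for 24 h and then given DMSO vehicle (control, 4 libraries) or 10 μM CHIR99021 (4 libraries) for 6 h, although the labels also name the source as E14.0 cultures. CHIR99021 inhibits the kinase GSK3 and thereby stabilises β-catenin, the effector of Wnt signalling. In each group replicates 1 and 3 are labelled female and replicates 2 and 4 male. The explants are whole cochleas, so each library mixes the epithelium with the mesenchyme, neurons and other cells around it, and a change in the share of a cell type cannot be told apart from a change of RNA per cell. The comparison asked which of these genes responded to 6 h of Wnt activation.

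A cell copies its DNA in steps that each need their own proteins. The origin recognition complex (ORC) binds origins, and CDC6 and CDT1 then load the ring-shaped MCM2 to MCM7 helicase in G1, a step called licensing, which geminin blocks once S phase has begun. The kinase of CDC7 and DBF4, MCM10, CDC45 and the GINS complex turn the loaded rings into active helicases. At the fork, DNA polymerase α with primase starts each strand, polymerases ε and δ extend it, PCNA clamps the polymerase to DNA after the clamp loader RFC has opened it, and RPA covers single-stranded DNA. Many of the genes are transcribed in pulses around the start of S phase under control of E2F factors, so their RNA levels also follow how many cells are cycling. In the mouse cochlea, the prosensory cells leave the cell cycle during the days around the stage studied.

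Expression is given as CPM, the reads of a gene per 1000000 reads assigned in its library. The libraries held 66483661 to 89269187 assigned reads in control and 64905007 to 75434130 in CHIR99021, so that a single read was worth 0.0112 to 0.0154 CPM, and the member with the lowest mean over the 8 libraries, Pole2, stood at 11.3 CPM. All 53 members were therefore among the 14264 genes with a mean of at least 1 CPM that were tested with limma on log2(CPM + 1). Fold changes are on this scale, which understates the change of low genes, with the Benjamini-Hochberg adjustment taken over all genes tested. A gene passed at an adjusted p below 0.05. Replicates 1 and 4 of both groups stood apart from replicates 2 and 3, with 22838 to 24249 against 20301 to 20698 genes with a read, with 2 control and 2 CHIR99021 libraries on either side. Mitochondrial transcripts also ranged widely, from 6051 to 18207 CPM in control and from 4501 to 18697 CPM in CHIR99021. They followed the same split, at 8707 CPM or more in replicates 1 and 4 and at 7534 CPM or less in replicates 2 and 3. Of 11 markers of otic epithelium, 1 was higher and 5 were lower in CHIR99021 while their summed level ranged from 4067 to 4276 CPM in control and from 4105 to 4423 CPM in CHIR99021. Of markers of cell types around the epithelium, those that fell numbered 3 of 5 tested for cartilage (summed level 4494 to 5828 CPM in control and 3542 to 4032 CPM in CHIR99021), 3 of 9 for neurons (210 to 233 and 120 to 157 CPM) and 4 of 5 for glia (653 to 714 and 470 to 503 CPM), and none of these lists had a marker at 0 in every library. In the other 6 lists (periotic mesenchyme, endothelium and pericytes, melanocytes, macrophages, red blood cells and hair cells) the summed levels of the groups overlapped, and of 29 markers tested 4 were higher and 6 were lower, 2 of each being among the 7 of periotic mesenchyme. The part of these shifts in the results below was not tested.

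After 6 h of CHIR99021, 25 of the 53 members were higher and 1 was lower, and 27 did not pass (limma, adjusted p below 0.05). Among all genes tested 12.3% were higher and 21.4% were lower. The genes that rose lay mostly at licensing, in the MCM helicase, in nucleotide supply and among the chromatin and repair proteins of the fork. Of the polymerase genes 1 of 9 passed, and the clamp loader genes did not. The median log2 fold change of the members was 0.19, with a range from -0.36 to 1.07, against a median of -0.05 over all genes tested, and 43 of the 53 estimates were above 0. In 23 members every CHIR99021 library lay above every control library, and in 1 member every one lay below, where 12.7% and 20.6% of all genes tested were parted in this way. The half-width of the 95% confidence interval of a member's log2 fold change had a median of 0.17, so that changes smaller than this were mostly not resolved. This interval is not adjusted for the number of genes, and some larger estimates did not pass, among them Pola2 (0.25), Rpa3 (-0.22) and Dbf4 (0.21).

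**Figure D1:**
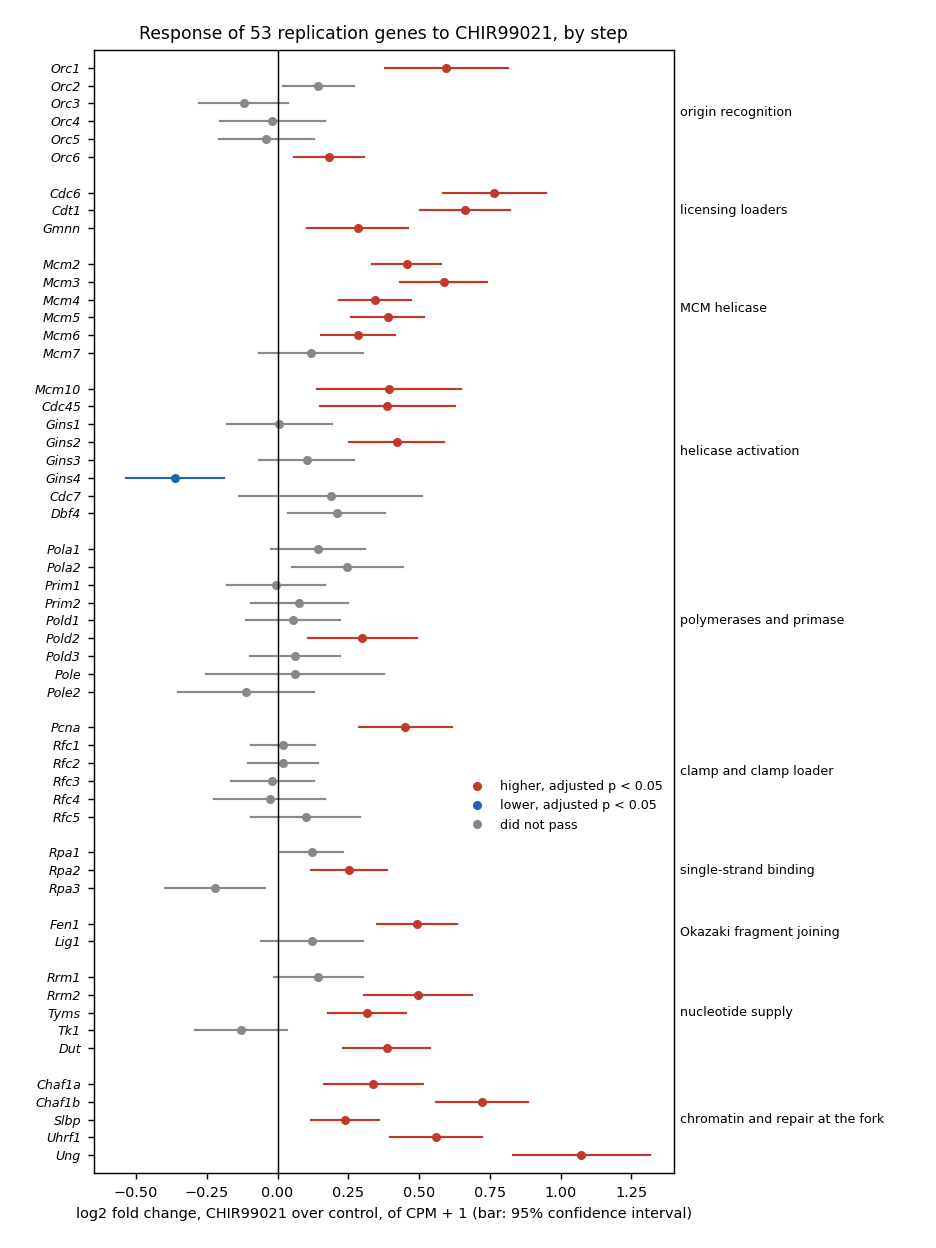
Log2 fold change of CPM + 1, CHIR99021 over control (x axis), for the 53 genes (y axis) grouped by step of replication, with 95% confidence intervals from limma over 4 control and 4 CHIR99021 libraries. Ung lies farthest to the right at 1.07, Gins4 farthest to the left at -0.36, and the 5 clamp loader genes Rfc1 to Rfc5 lie around 0.

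Summed over the 53 genes, the members made up 3786, 3572, 3872 and 3610 CPM in control replicates 1 to 4 and 4698, 4141, 4719 and 4416 CPM in CHIR99021 replicates 1 to 4, so the groups did not overlap. CHIR99021 replicate 2 was the lowest of its group for 30 members and replicate 4 for 18, both labelled male. How often each library was the lowest over all genes tested was not counted. Without CHIR99021 replicate 2, 29 members were higher and 1 lower, and over the omission of each library in turn the number higher ranged from 20 to 29. Over all genes tested, the same omissions gave from 1369 of 14290 (without CHIR99021 replicate 3) to 1723 of 14248 (without control replicate 3) higher. The omission of CHIR99021 replicate 2 gave 1565 of 14284 of all genes higher, and that of control replicate 3 gave 26 members higher. Of the 25 that rose, 20 passed in every alternative with at least 3 libraries in each group. Within replicates 1 and 4 alone, 21 members were higher and 1 lower, and within replicates 2 and 3 alone 14 were higher, with Gins4, the 1 member that fell over all libraries, at a limma adjusted p of 0.0595. Over all 14264 genes tested, 1154 were higher within replicates 1 and 4, 611 within replicates 2 and 3, and 1753 with all libraries. Rescaling the libraries by TMM, a correction for the makeup of each library, gave 29 higher and 1 lower, against 2446 (17.1%) higher and 2330 (16.3%) lower of all genes tested. It moved the share of higher genes among all that passed from 36.5% to 51.2%.

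**Figure D2:**
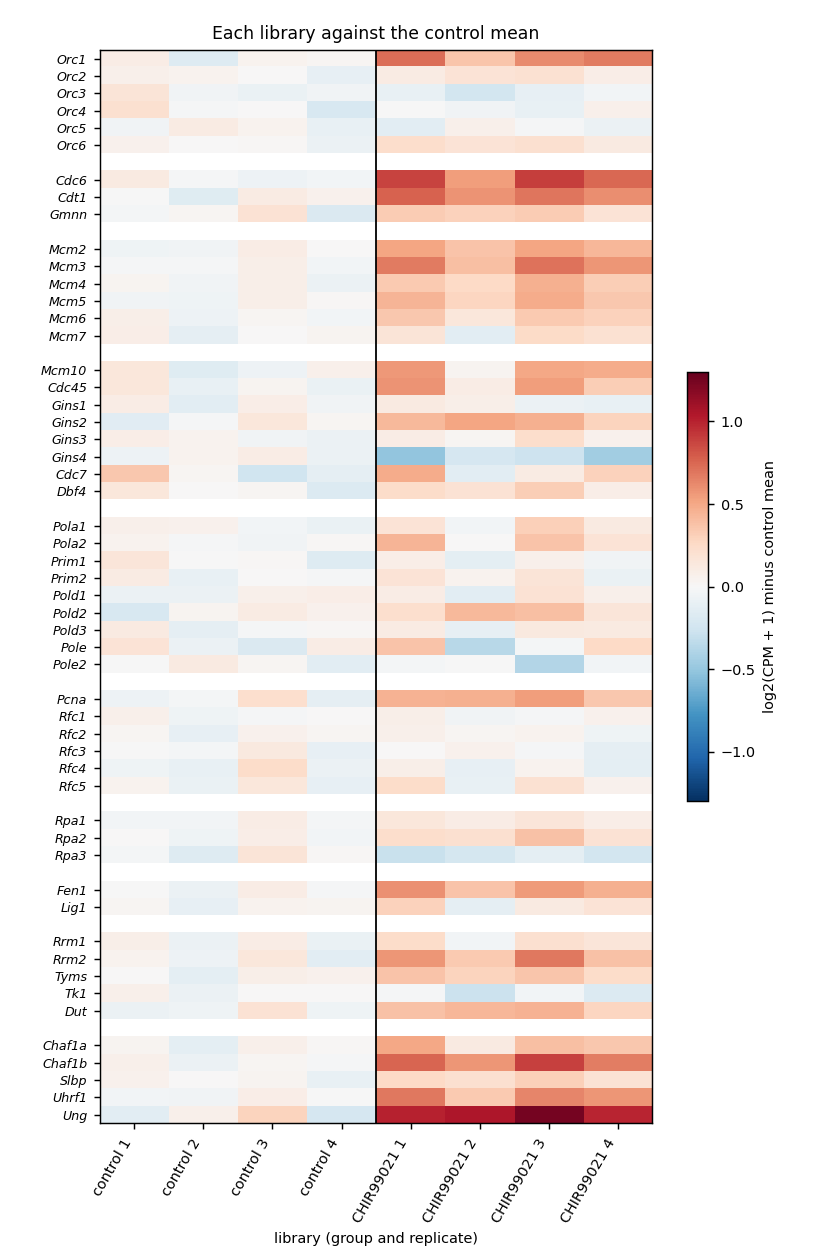
Each library's log2(CPM + 1) minus the mean of the 4 control libraries (colour), for the 53 genes (rows, in order of step, with gaps between steps) in 8 libraries (columns). The CHIR99021 columns are red for Cdc6 and Cdt1, for Mcm2 to Mcm6 and for the chromatin genes, palest in CHIR99021 2 except for Slbp and Ung, and Gins4 is blue in all 4.

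Because licensing and fork genes are known E2F targets, their promoters were searched for the E2F letters TTTCCCGC, TTTCGCGC, TTTGCCGC and TTTGGCGC on both strands. The RefSeq promoter windows of GRCm38.p6 (250 bases before to 50 after each start) held 45 of the 53 members, and Gins1, Gins2, Gins4, Gmnn, Mcm4, Pole, Prim2 and Rfc2 had none. The letters were found in 16 of these 45 (35.6%), against 467 of 10047 tested genes with a promoter (4.65%) and 704 of all 27025 genes (2.60%). They were in 7 of the 22 members that rose and in 9 of the 23 that did not pass. Letters bound by TCF factors of the Wnt pathway (CTTTGAA or CTTTGAT) were in 2 of 45 members (4.44%, against 6.87% of tested genes), in Fen1 and Cdc7. The CHR letters TTTGAA, which lie within the first of those, were in 7 (15.6%, against 13.9%), and CCAAT was in 26 (57.8%, against 42.9%). A match describes the letters only, not a bound site. The stretches below are shown to place the E2F letters beside the response, with the letters in capitals. Each is read 5′ to 3′ on the strand of its gene, credited to RefSeq on GRCm38.p6, and some of the shorter windows lie in annotated exons. Cdc6, Mcm5, Mcm6 and Orc1 rose, and Pola1 and Mcm7 did not pass. The balance of these examples is not that of the counts above (7 of 22 that rose and 9 of 23 that did not pass).
Cdc6 (chr11:98907977-98908056, plus strand): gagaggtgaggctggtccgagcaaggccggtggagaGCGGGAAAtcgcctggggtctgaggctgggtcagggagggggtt
Mcm5 (chr8:75109320-75109399, plus strand): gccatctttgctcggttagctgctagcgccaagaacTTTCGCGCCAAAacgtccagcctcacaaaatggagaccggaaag
Mcm6 (chr1:128359772-128359851, minus strand): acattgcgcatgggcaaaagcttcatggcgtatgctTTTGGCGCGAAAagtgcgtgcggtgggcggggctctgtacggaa
Orc1 (chr4:108579416-108579445, plus strand): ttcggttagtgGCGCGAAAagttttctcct
Pola1 (chrX:93632250-93632329, minus strand): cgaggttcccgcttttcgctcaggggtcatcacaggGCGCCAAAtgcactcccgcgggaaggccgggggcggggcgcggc
Mcm7 (chr5:138172030-138172059, minus strand): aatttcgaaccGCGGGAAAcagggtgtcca
In Mcm5 and Mcm6 the capitals cover 2 overlapping matches, on opposite strands.

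**Figure D3:**
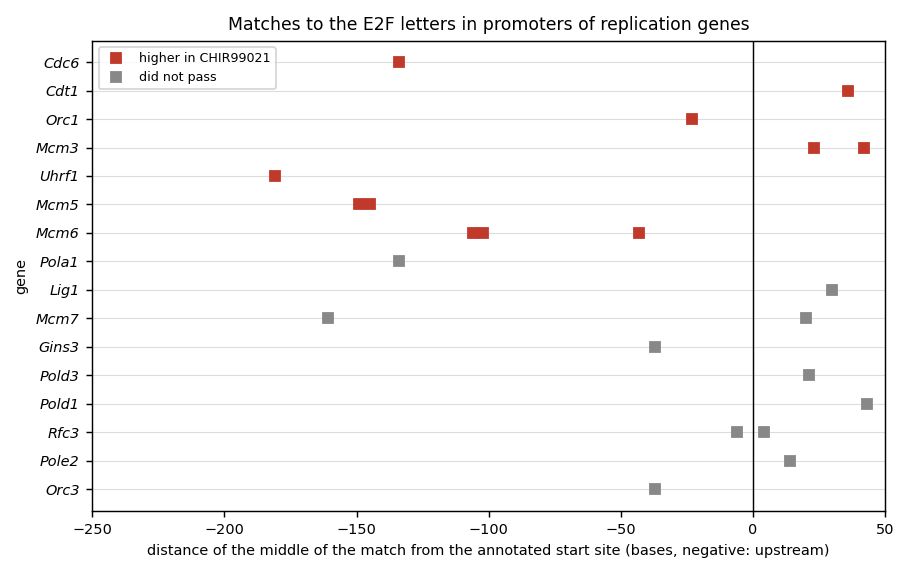
Distance of the middle of each match to the E2F letters from the annotated start site, in bases (x axis, negative upstream), for the 16 genes that hold one (y axis), with genes that rose in red and genes that did not pass in grey. Matches of 7 genes that rose and 9 that did not pass lie on both sides of the start.

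Of the 6 ORC genes, Orc1 and Orc6 rose and the others did not pass. Orc1 (ENSMUSG00000028587, chromosome 4 of GRCm38, 108579423 to 108614833) encodes the ATPase subunit whose protein, in mammals, comes and goes with the cell cycle. It was at 14.8, 12.2, 14.2 and 14.01 CPM in control and at 23.5, 18.03, 21.7 and 22.6 CPM in CHIR99021, each list in the order of replicates 1 to 4. Every CHIR99021 library lay above every control library, and the mean rose from 13.8 ± 1.13 to 21.5 ± 2.40 CPM (± SD, n = 4 in each group), which is 0.60 on the log2 scale (standard error, SE, 0.0987, adjusted p = 0.00106 in limma). Orc6, which encodes the smallest subunit, rose by 0.18 (limma adjusted p = 0.0294), from 42.5 ± 1.57 to 48.4 ± 1.64 CPM. Its groups did not overlap, and its estimate stayed between 0.16 and 0.20 with each library left out in turn. The call lay near the threshold. It missed it without control replicate 2 or 4 or without CHIR99021 replicate 1 or 3 (limma adjusted p from 0.0585 to 0.0863). Orc3, a subunit of the core of the complex, had the lowest estimate of the step, at -0.12 (95% interval -0.28 to 0.04). Orc3 was at 64.2, 55.2, 53.7 and 55.2 CPM in control and at 53.1, 48.2, 52.8 and 55.5 CPM in CHIR99021, and the groups overlapped. Orc2, another core subunit, went from 70.00 ± 3.67 to 77.4 ± 2.90 CPM without overlap but had a limma adjusted p of 0.0728, and it passed after TMM scaling (log2 fold change 0.21, limma adjusted p = 0.0142). The estimates of Orc4 (-0.02) and Orc5 (-0.04), both ATPase-fold subunits, were close to 0 and turned positive after TMM scaling.

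Cdc6 and Cdt1, the genes of helicase loading, rose, and so did Gmnn, whose protein blocks loading. Cdc6 (ENSMUSG00000017499, chromosome 11, 98907801 to 98923940) encodes the ATPase that joins ORC at the origin. Cdc6 was at 42.03, 38.2, 36.97 and 37.7 CPM in control and at 71.9, 56.8, 73.1 and 65.4 CPM in CHIR99021. The lowest CHIR99021 library, replicate 2, still lay above the highest control, and the mean of Cdc6 went from 38.7 ± 2.26 to 66.8 ± 7.46 CPM, a rise of 1.72 times (0.77 on the log2 scale, SE 0.0832, adjusted p = 7.45e-05 in limma). Cdt1, which brings the MCM ring to ORC and CDC6, was at 33.7, 30.4, 36.7 and 35.2 CPM in control and at 58.3, 51.2, 55.5 and 52.2 CPM in CHIR99021. Its groups did not overlap either, with a rise of 0.66 (SE 0.0726, adjusted p = 7.87e-05 in limma). Gmnn encodes geminin, the inhibitor of CDT1. It was at 35.9, 37.3, 41.8 and 31.99 CPM in control and at 46.1, 45.1, 46.2 and 41.5 CPM in CHIR99021, where the lowest CHIR99021 library lay below the highest control library. Gmnn rose less, by 0.28 (SE 0.0812, adjusted p = 0.0209 in limma), and did not pass without CHIR99021 replicate 1 or 3 (limma adjusted p = 0.0548 and 0.0557). The ratio of Cdt1 to Gmnn CPM within a library was 0.933 ± 0.122 in control and 1.21 ± 0.0602 in CHIR99021 (SD, n = 4 each), and its lowest CHIR99021 value, 1.13, lay above its highest control value, 1.10. This ratio and the others below do not depend on library scaling, were chosen after the values were seen and are given without a test.

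Of the 6 genes of the MCM ring, 5 rose, by 0.28 to 0.59 on the log2 scale. Mcm3 (ENSMUSG00000041859, chromosome 1, 20802968 to 20820312) rose most. Mcm3 was at 134, 134, 143 and 133 CPM in control and at 217, 178, 222 and 203 CPM in CHIR99021. Control libraries lay within a narrow band and each CHIR99021 library above it, and the difference was 0.59 (SE 0.0694, adjusted p = 0.000127 in limma). Mcm2, whose subunit forms part of the gate through which DNA enters the ring, was at 150.3, 151, 167 and 157 CPM in control and at 223, 202, 224 and 211 CPM in CHIR99021. It rose by 0.46 (SE 0.0558, adjusted p = 0.000158 in limma). The partner at that gate, Mcm5, was at 144, 143, 156 and 149.5 CPM in control and at 202, 179, 206 and 189 CPM in CHIR99021. Its rise was 0.39 (limma adjusted p = 0.000583), again without overlap. Mcm4, which carries a tail phosphorylated by the CDC7 kinase, was at 135, 128, 138 and 125 CPM in control and at 166, 157, 181 and 164 CPM in CHIR99021. It rose by 0.34 (limma adjusted p = 0.00121). Mcm6, the neighbour of MCM2 in the ring, rose by 0.28 from 154 ± 6.60 to 188 ± 11.8 CPM (limma adjusted p = 0.00395). Mcm7, the remaining subunit, was at 157, 137, 149 and 152 CPM in control and at 167, 135, 177 and 169.9 CPM in CHIR99021. Its estimate of 0.12 (95% interval -0.06 to 0.30, limma adjusted p = 0.302) did not pass, with CHIR99021 replicate 2 as the lowest of all 8 libraries, and without that library it was 0.20 (limma adjusted p = 0.0276). Mcm3 CPM divided by Mcm7 CPM was 0.917 ± 0.0631 in control and 1.27 ± 0.0563 in CHIR99021 (SD, n = 4 each), and the groups did not overlap.

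**Figure D4:**
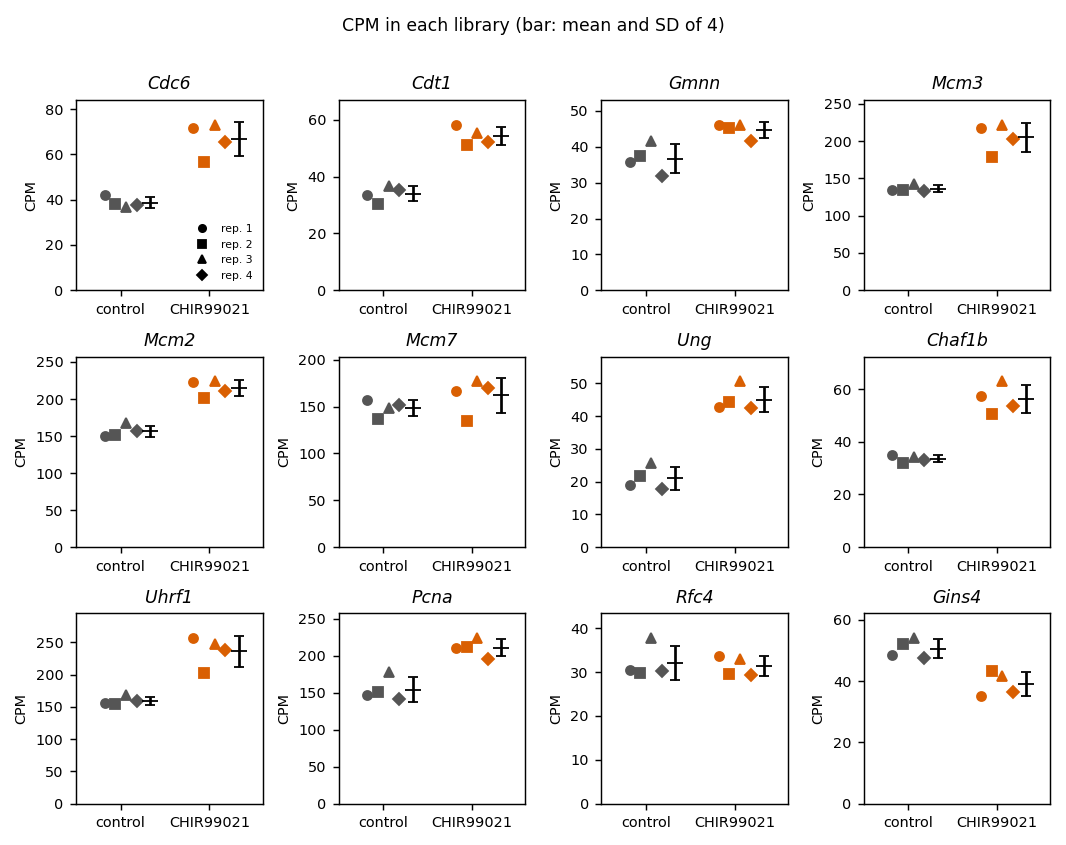
CPM (y axes, from 0) of 12 genes in each of 4 control (grey) and 4 CHIR99021 (orange) libraries, with a marker shape for each replicate and black bars for the mean and SD. Cdc6, Cdt1, Mcm3, Mcm2, Ung, Chaf1b, Uhrf1 and Pcna part the groups upward and Gins4 downward, while Mcm7, Rfc4 and Gmnn overlap.

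Of the 8 genes that activate the helicase, 3 rose, 1 fell and 4 did not pass, and the GINS subunits went in different directions. Gins2 (ENSMUSG00000031821, chromosome 8, 120578633 to 120589304), a GINS subunit, was at 30.04, 32.9, 36.9 and 33.9 CPM in control and at 45.1, 47.9, 46.2 and 41.02 CPM in CHIR99021. It rose by 0.42 (SE 0.0764, adjusted p = 0.00181 in limma), and the groups did not overlap. Gins4 (ENSMUSG00000031546, chromosome 8, 23226616 to 23237659), its partner in the same complex, was the only member that fell. Gins4 was at 48.4, 52.2, 54.02 and 47.7 CPM in control and at 35.2, 43.2, 41.8 and 36.6 CPM in CHIR99021. Each CHIR99021 library was below each control library, with a change of -0.36 (SE 0.0789, adjusted p = 0.0051 in limma), and the call held with each library left out in turn (limma adjusted p from 0.00349 to 0.0178) and after TMM scaling (-0.30), but not within replicates 2 and 3 alone (-0.31, limma adjusted p = 0.0595). The ratio of Gins4 to Gins2 CPM went from 1.52 ± 0.0971 in control to 0.870 ± 0.0602 in CHIR99021 (SD, n = 4 each). Its lack of overlap follows from that of each gene and is no further result. Gins1 (0.01, 95% interval -0.18 to 0.19) and Gins3 (0.10, -0.07 to 0.27), the other GINS subunits, did not pass. Cdc45, which joins the helicase with GINS, rose by 0.39 (adjusted p = 0.0181 in limma), from 29.7 ± 2.50 to 39.4 ± 6.08 CPM, and Mcm10, which helps to start the helicase, from 29.7 ± 2.88 to 39.6 ± 6.21 CPM (0.39, limma adjusted p = 0.0226). In both, CHIR99021 replicate 2 (31.8 and 30.4 CPM) lay within the control range. Cdc45 missed the threshold without control replicate 2 or 4 or CHIR99021 replicate 1 or 3 (limma adjusted p from 0.0507 to 0.0548), and Mcm10 without control replicate 2 or CHIR99021 replicate 1, 3 or 4 (0.0585 to 0.0650). Both also missed it with no filter on low values (limma adjusted p = 0.0557 and 0.0696). Dbf4, the activator of the CDC7 kinase, was at 0.21 with a limma adjusted p of 0.0591, and passed with replicate number as a block (limma adjusted p = 0.0155), after TMM scaling (0.27, limma adjusted p = 0.0182) and without control replicate 1 or CHIR99021 replicate 4 (0.0317 and 0.0483). Cdc7, the kinase itself, was the most variable member among the controls, with a coefficient of variation of 19.2% against a median of 6.28% over the members, and its estimate of 0.19 had a wide interval (-0.14 to 0.51).

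Of the 9 polymerase and primase genes, 1 rose and the other 8 did not pass. Pold2 (ENSMUSG00000020471, chromosome 11, 5872180 to 5878292), an accessory subunit of polymerase δ, was at 27.8, 33.05, 34.8 and 33.5 CPM in control and at 37.6, 43.6, 42.5 and 36.1 CPM in CHIR99021. Its groups did not overlap, and it rose by 0.30 (SE 0.0881, adjusted p = 0.0232 in limma), but it did not pass without control replicate 1 or CHIR99021 replicate 2 or 3 (0.0553 to 0.0663) or with no filter on low values (limma adjusted p = 0.0552). Its catalytic partner Pold1 (0.05, 95% interval -0.11 to 0.22) and the accessory subunit Pold3 (0.06, -0.10 to 0.22) did not pass. Of polymerase α, the catalytic Pola1 stood at 0.14 and the accessory Pola2 at 0.25 (limma adjusted p = 0.17 and 0.053). Pola2 passed with replicate number as a block (limma adjusted p = 0.0224), after TMM scaling (0.31, 0.0224) and without CHIR99021 replicate 2 (0.33, 0.00727), and Pola1 also passed without that library (0.20, 0.0489). The primase genes Prim1, the catalytic subunit, and Prim2, the large subunit, had estimates of -0.01 and 0.08, that of Prim1 turning positive after TMM scaling (0.05). Pole2, the accessory subunit of polymerase ε, had the lowest estimate of the step. It was at 11.7, 12.8, 11.98 and 10.6 CPM in control and at 11.5, 11.7, 8.77 and 11.4 CPM in CHIR99021. The value of CHIR99021 replicate 3 lay apart from the rest, and the estimate of -0.11 (95% interval -0.35 to 0.13, limma adjusted p = 0.464) did not pass. Pole, the catalytic subunit of polymerase ε, ranged from 43.3 to 72.7 CPM in CHIR99021 alone and had an estimate of 0.06 (-0.25 to 0.38).

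Pcna rose, and none of the 5 clamp loader genes passed in limma, at an unadjusted p below 0.05, or in edgeR or DESeq2. Pcna (ENSMUSG00000027342, chromosome 2, 132249162 to 132253314), whose protein encircles DNA and tethers polymerases and many other factors, was at 147, 151, 179 and 141 CPM in control and at 211, 212, 224 and 196 CPM in CHIR99021. Every CHIR99021 library exceeded every control library, and the rise was 0.45 (SE 0.0749, adjusted p = 0.00108 in limma). A gene named as a Pcna pseudogene, Pcna-ps2, also collected reads (33.4 CPM in control and 46.5 CPM in CHIR99021), so the division of reads between the copies is uncertain. The large loader subunit Rfc1 and the small subunits Rfc2, Rfc3, Rfc4 and Rfc5 had estimates of 0.02, 0.02, -0.02, -0.03 and 0.10. Rfc4 was at 30.6, 29.8, 37.7 and 30.2 CPM in control and at 33.6, 29.5, 33.02 and 29.2 CPM in CHIR99021. Its groups overlapped, the highest value being that of control replicate 3. The intervals were -0.10 to 0.13 for Rfc1 and -0.09 to 0.29 for Rfc5, the genes at the top by level and by estimate, and the estimates of Rfc3 and Rfc4 turned positive after TMM scaling (0.04 and 0.03). Pcna CPM divided by Rfc1 CPM was 1.06 ± 0.129 in control and 1.43 ± 0.119 in CHIR99021 (SD, n = 4 each), without overlap.

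Among the RPA genes, Rpa2 (ENSMUSG00000028884, chromosome 4, 132768332 to 132778752), the subunit that is phosphorylated under replication stress, was at 56.2, 53.6, 59.3 and 54.5 CPM in control and at 65.5, 64.8, 73.05 and 63.9 CPM in CHIR99021. It rose by 0.25 (SE 0.0613, adjusted p = 0.00924 in limma), without overlap. The small subunit Rpa3 was at 30.7, 27.6, 35.2 and 31.5 CPM in control and at 25.3, 26.5, 28.3 and 26.2 CPM in CHIR99021, and control replicate 2 lay within the CHIR99021 range. The estimate of -0.22 (95% interval -0.40 to -0.04, limma adjusted p = 0.054) did not pass, but with replicate number as a block it did (limma adjusted p = 0.0257), as it did without control replicate 2 (-0.28, 0.0255). Rpa1, the large DNA-binding subunit, had an estimate of 0.12 (limma adjusted p = 0.0895) and passed after TMM scaling (0.18, limma adjusted p = 0.0212) and without control replicate 3 (0.15, 0.0389). Fen1 (ENSMUSG00000024742, chromosome 19, 10199132 to 10204169), the nuclease that trims the flaps between Okazaki fragments, was at 60.9, 57.8, 65.5 and 60.2 CPM in control and at 92.7, 79.1, 89.8 and 84.2 CPM in CHIR99021. The groups were well apart, and Fen1 rose by 0.49 (SE 0.0646, adjusted p = 0.000243 in limma). Lig1, the ligase that seals the nick left by FEN1, was at 130.3, 119, 132 and 131 CPM in control and at 158, 118, 139 and 145 CPM in CHIR99021. Its estimate of 0.12 (limma adjusted p = 0.287) did not pass with all libraries and was 0.20 (limma adjusted p = 0.0371) without CHIR99021 replicate 2, the lowest library of all 8.

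Among 5 genes of nucleotide supply, Rrm2, Dut and Tyms rose, and Rrm1 and Tk1 did not pass. Rrm2 (ENSMUSG00000020649, chromosome 12, 24708241 to 24714146) encodes the small subunit of ribonucleotide reductase, the cell-cycle-regulated part of the enzyme that makes deoxyribonucleotides. It was at 127, 118, 137 and 112 CPM in control and at 184, 156, 198 and 161 CPM in CHIR99021. CHIR99021 libraries all lay above the controls, with a rise of 0.50 (SE 0.0871, adjusted p = 0.00151 in limma). Rrm1, the large subunit, was at 0.14 (95% interval -0.01 to 0.30, limma adjusted p = 0.148), passed with replicate number as a block (limma adjusted p = 0.0421) and was 0.20 without CHIR99021 replicate 2 (limma adjusted p = 0.0358). Dut, the dUTPase that keeps uracil out of DNA, rose by 0.38, from 61.7 ± 5.61 to 80.8 ± 4.25 CPM (adjusted p = 0.00191 in limma), and Tyms, thymidylate synthase, by 0.32, from 53.5 ± 3.36 to 66.8 ± 2.96 CPM (0.00296). Tk1, the thymidine kinase that salvages thymidine, was at 40.8, 36.8, 38.98 and 38.9 CPM in control and at 38.4, 31.7, 37.98 and 34.1 CPM in CHIR99021. The groups overlapped and the estimate of -0.13 (95% interval -0.29 to 0.03, limma adjusted p = 0.206) did not pass.

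All 5 genes of chromatin assembly and repair at the fork rose, and in each the groups did not overlap. Ung (ENSMUSG00000029591, chromosome 5, 114130386 to 114139323), the glycosylase that removes uracil from DNA, changed most of the 53 members. Ung was at 18.9, 21.7, 25.7 and 17.7 CPM in control and at 42.7, 44.3, 50.6 and 42.3 CPM in CHIR99021. The lowest CHIR99021 library was well above the highest control, and Ung rose 2.14 times, from a mean of 21.01 ± 3.54 to 44.98 ± 3.81 CPM (1.07 on the log2 scale, SE 0.109, adjusted p = 4.89e-05 in limma). Chaf1b and Chaf1a encode subunits of CAF-1, which deposits histones behind the fork. Chaf1b was at 35.1, 31.8, 34.2 and 33.2 CPM in control and at 57.6, 50.4, 62.9 and 53.8 CPM in CHIR99021. It rose by 0.72 (SE 0.0741, adjusted p = 5.12e-05 in limma), and Chaf1a by 0.34 from 108 ± 6.20 to 137 ± 14.9 CPM (limma adjusted p = 0.00771). The Chaf1a gene overlaps Ubxn6 on the opposite strand over 5245 bases, and since the strand setting of the counting is not given in the sources used here, reads of that overlap may be shared. The same limit holds for other members that overlap an expressed gene on the opposite strand, among them Orc2, Orc6, Cdc45, Gins2 and Rfc4. Uhrf1, which brings the maintenance DNA methyltransferase to newly copied DNA, was at 156, 154, 169 and 159 CPM in control and at 256, 202, 248 and 238 CPM in CHIR99021. Its rise was 0.56 (SE 0.0734, adjusted p = 0.000245 in limma). Slbp, the protein that binds the stem-loop of replication-dependent histone mRNAs, was at 96.5, 93.1, 95.3 and 86.5 CPM in control and at 111, 107, 115 and 106 CPM in CHIR99021. Its change was the smallest of the 5, at 0.24 (limma adjusted p = 0.00658).

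Within the complexes, levels per length were compared between genes as CPM per kb of annotated exon. This length merged the exons of all annotated transcripts of a gene, and which transcripts were expressed was not examined. The orders between genes therefore depend on the annotation. Mcm2, with 6.96 kb, had the highest control CPM of the MCM ring genes (156 ± 7.67) but the lowest level per kb. In control, Mcm5 (37.0 ± 1.55), Mcm4 (36.6 ± 1.76) and Mcm3 (36.2 ± 1.24) stood at the top of the MCM genes and differed by less than their SD, followed by Mcm7 (33.6 ± 1.98) and Mcm6 (32.98 ± 1.41), which also overlapped, and by Mcm2 (22.5 ± 1.10). In CHIR99021 the top level was that of Mcm3 (54.7 ± 5.19) and the lowest that of Mcm2 (30.9 ± 1.49). The 4 GINS genes spanned more, from 7.61 ± 0.414 CPM per kb for Gins3 to 37.5 ± 2.24 for Gins4 in control, a ratio of 4.93, which was 3.55 in CHIR99021 where Gins4 was at 29.1 ± 2.91. Levels of the ORC genes per kb ran from 3.97 ± 0.324 for Orc1, level with Orc5 (3.97 ± 0.264), to 18.1 ± 0.951 for Orc2 in control. In CHIR99021, Orc1 (6.17 ± 0.690) lay above Orc5 (3.86 ± 0.246) and near Orc4 (6.01 ± 0.306), so the change took Orc1 from the bottom of the complex to the level of the next subunit. Of the 5 complexes, RPA had the genes closest to each other in level, with a highest-to-lowest ratio of 1.47 in control and 1.10 in CHIR99021. Of all 53 genes, Pcna had the highest level per kb in control (64.4 ± 6.91) and Ung the lowest (3.84 ± 0.647), with Mcm10 (3.86 ± 0.375) next to it within the SD.

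**Figure D5:**
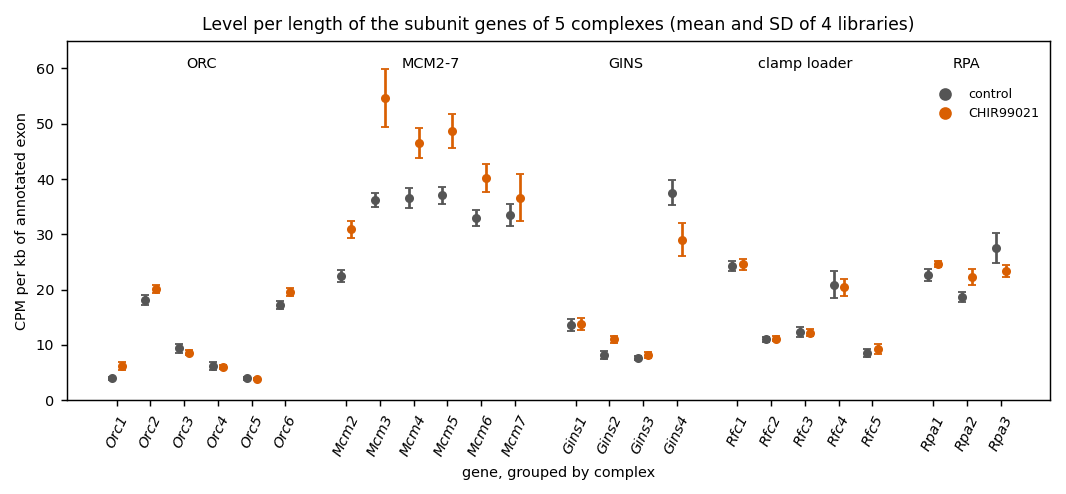
CPM per kb of annotated exon (y axis, from 0) for the subunit genes of 5 complexes (x axis), as mean and SD of 4 control (grey) and 4 CHIR99021 (orange) libraries. Mcm2 to Mcm6 rise, from 22.5 to 30.9 for Mcm2 and from 36.2 to 54.7 for Mcm3, while the clamp loader genes stay within their SD and Gins4 drops.

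A wider list of 55 replication genes that are not members was examined beside these counts, of which 53 were tested (1 symbol had no row in the table and 1 gene was below the minimum level). Like the members, it was chosen with earlier results of these data known, so it is not an independent reference. In it 22 were higher and 3 lower, with a median log2 fold change of 0.17, where 12.3% of all genes tested were higher and 21.4% lower. Other nucleotide supply genes held 10 of the higher ones among 15, other chromatin genes of the fork 6 of 9, other fork stability genes 4 of 17, and other origin firing factors 2 of 6, while Primpol, which was lower, was the only gene that passed among 6 other polymerase genes. Dna2, a nuclease and helicase that acts on long flaps, rose most, from 12.5 ± 0.911 to 24.5 ± 2.82 CPM (0.91, limma adjusted p = 6.32e-05). Shmt1, an enzyme of folate metabolism that feeds thymidylate synthesis, rose by 0.80, Cdca7, a partner of the remodeller HELLS, by 0.70, and Nme1, a nucleoside diphosphate kinase, by 0.69 (limma adjusted p = 0.000111, 7.87e-06 and 0.000113). Primpol, which restarts synthesis ahead of a block, was lower (-0.56, limma adjusted p = 0.00246), as were the mitochondrial thymidine kinase gene Tk2 (-0.26, 0.0245) and the histone chaperone gene Asf1a (-0.18, 0.0499). After TMM scaling, Tk2 (limma adjusted p = 0.0738) and Asf1a (0.179) did not pass. Each of them also missed the threshold with some libraries left out, Tk2 without control replicate 2 or 4 or CHIR99021 replicate 1 or 4 (0.0576 to 0.0660) and Asf1a without control replicate 1, 3 or 4 or CHIR99021 replicate 1, 3 or 4 (0.0634 to 0.127).

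The libraries labelled male were lower than those labelled female for most members. With treatment as a covariate, a comparison added after the values were seen, the estimate was lower in the male libraries for 49 of 53 members, with a median of -0.11 on the log2 scale, where 48.6% of all genes tested were lower and their median was 0.0031. None passed the adjusted threshold (limma), where 14 of all 14264 genes did (0.0981%). At an unadjusted p below 0.05 there were 11 members, and 609 of all genes tested (4.27%). The smallest p among members belonged to Rrm2, at -0.23 (limma adjusted p = 0.537). Both male libraries lay below both female ones for 22 members in control and for 32 in CHIR99021, and in no member did both lie above. Of all genes tested, both lay below in 13.4% in control and 12.1% in CHIR99021, and both lay above in 14% (1998 genes) and 12.9%. Libraries of the same replicate number deviated together (r = 0.25 to 0.51 over all genes tested), and each number holds a single sex. The libraries of a sex may thus not be independent, as these p-values assume. The order in CHIR99021 may likewise not be an independent repeat of that in control. Whether the response to CHIR99021 differed between the sexes was tested as an interaction: 0 of 53 members and 0 of all genes passed (limma), also with edgeR for the members, and 1 member was below an unadjusted p of 0.05, where 1.27% of all genes were. With replicate number as a block, 2 of all genes passed (0.014%), no member among them, and 1 member and 3.41% of all genes were below an unadjusted p of 0.05 (limma). That member was in each case Pola2, whose response was lower in the male libraries (a difference of -0.31). With 2 libraries for each sex and treatment, the 95% interval of such a difference had a median half-width of 0.32, so that differences smaller than this were mostly not resolved.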

How the data were processed

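The authors mapped 75 bp paired-end reads of strand-specific polyA libraries to GRCm38 (Ensembl release 91) with HISAT2 and deposited CPM per gene and library. The counter, its strand setting and the test behind their comparisons are not given in the sources used here. The authors' columns of fold changes, p-values and false discovery rates (all libraries and each sex) were not used. Each CPM was a whole number of reads within 0.001 read (100% of values), so reads could be recovered.

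Values were tested as log2(CPM + 1) with limma 3.58.1 (trend, two-sided) over the 14264 genes that averaged 1 CPM or more, with Benjamini-Hochberg adjustment at 0.05. Alternatives were edgeR 4.0.16 and DESeq2 1.42.0 on recovered reads, TMM scaling, pseudocounts of 0.1 and 0.5, other filters, sex as a covariate, a replicate block, the replicates on either side alone, and each library left out. Libraries of the same replicate number deviated together from their group means (r = 0.51, 0.25, 0.35 and 0.34 for replicates 1 to 4, at most 0.17 with another number), a pairing taken from the data and stated by no label. The labels call the replicates biological and do not say which animals each holds. Coordinates and exon lengths came from GENCODE M21 (GRCm38), which held 99.3% of the identifiers.

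The 53 members and the other lists were chosen with earlier results of these data known. All members are named, with every library's value for the smallest p and the lowest fold change of each step and for the 12 smallest p. Of the other replication genes, the 4 highest and 4 lowest of those that passed are named (3 fell). Pcna-ps2 and Ubxn6 were named after their values were seen.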

Additional observations from a re-analysis of the deposited data

Results flagged for a closer look

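In 8 of 106 groups of 4 libraries, a member's highest or lowest library lay far from the other 3 (a gap above Dixon's critical value for 4 samples), where chance gives about 1 group in 20. Control replicate 3 was the high library for Mcm3 (143 CPM, next 134), Rfc4 (37.7 CPM, next 30.6), Rpa1 (135 CPM, next 124) and Dut (70.1 CPM, next 59.3). Orc3 was high in control replicate 1 (64.2 CPM, next 55.2) and Lig1 low in control replicate 2 (119 CPM, next 130.3). Among CHIR99021 libraries, Pold3 was low in replicate 2 (46.1 CPM, next 53.8) and Pole2 in replicate 3 (8.77 CPM, next 11.4). Mcm3 and Dut rose in CHIR99021 all the same, and the highest control value of each lay below the lowest CHIR99021 value.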

How the results depend on the processing

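The number of members higher stayed between 20 and 31 in all alternatives except within replicates 2 and 3 (14). The number over all genes tested changed as well. It was 1369 of 14290 without CHIR99021 replicate 3 (20 members), 2772 of 17954 with DESeq2 (31 members) and 611 of 14264 within replicates 2 and 3. Members lower numbered 2 with a minimum mean CPM of 5 and with the replicate block (Gins4 and Rpa3), 0 within replicates 2 and 3, where limma had 2 libraries a group, and 1 to 2 with a library left out. The replicate block gave 28 members higher, adding Dbf4, Pola2 and Rrm1, and Rpa3 as lower (limma adjusted p = 0.0257), and changed no other call of a member. Over all 14264 genes tested, the block gave 2190 higher and 3718 lower, against 1753 and 3052 without it. With no filter on low values Mcm10, Cdc45 and Pold2 did not pass. The median of the members was 0.26 with edgeR on DESeq2 size factors and with DESeq2, and 0.15 to 0.23 with a library left out. Other replication genes lower numbered 1 after TMM scaling, with each edgeR fit, with DESeq2 and within replicates 1 and 4, 0 within replicates 2 and 3 (9 higher there) and 1 to 4 with a library left out (15 to 23 higher).
Members near 0 changed sign without passing. After TMM scaling, with edgeR (TMM, DESeq2 size factors, no filter) and with DESeq2, in this order, Orc4 was at 0.042, 0.039, 0.043, 0.037 and 0.043, Orc5 at 0.021, 0.023, 0.027, 0.021 and 0.027, Prim1 at 0.055, 0.057, 0.060, 0.055 and 0.061, Rfc3 at 0.043, 0.044, 0.048, 0.042 and 0.048, and Rfc4 at 0.032, 0.031, 0.035, 0.029 and 0.035. Within replicates 1 and 4, Orc4 (0.031), Gins1 (-0.015), Prim1 (0.021), Pole2 (0.042), Rfc2 (-0.019) and Rfc4 (0.043) did so, and Pole within replicates 2 and 3 (-0.057). With a library left out, Orc4 ranged from -0.088 to 0.050, Gins1 from -0.038 to 0.040, Prim1 from -0.061 to 0.045, Pole from -0.043 to 0.202, Rfc1 from -0.0018 to 0.040, Rfc2 from -0.015 to 0.044, Rfc3 from -0.053 to 0.025 and Rfc4 from -0.062 to 0.050.
The cause of these changes was not tested.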
